A study of Rattus norvegicus with 16 samples.

Results

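Map3k7cl, Hsf2, Zfp365 and Tp63 are 4 of the 32552 genes counted in the abdominal wall of rats beneath an adhesive or a non-adhesive implant. They were chosen by their symbols because of their values in the comparison of the implants on day 14, where all 4 were higher at the adhesive implant, so that comparison is described for them and not tested. The study sequenced 16 bulk RNA libraries, 4 in each of 4 groups: adhesive day 3, non-adhesive day 3, adhesive day 14 and non-adhesive day 14 after implantation. All came from Sprague Dawley rats of 12 weeks, female by the labels, without a transgene or a drug treatment in the labels. The methods of the paper name female and male rats for its rat studies as a whole. The implant was a mock device of polyurethane, and its adhesive layer, made of poly(acrylic acid) with NHS ester groups and poly(vinyl alcohol), bonds to wet tissue. The non-adhesive implant was the same object left overnight in PBS, which removed its adhesion, and it was fixed by sutures at its corners, so the suture belongs to every difference between the implants. The labels name a day 17 and a day 10 elsewhere, and the days used here are those of the sample labels. It is not stated that each library is a separate rat, and the p values below therefore measure the spread between libraries, which may be technical.

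Map3k7cl encodes a small protein that resembles the C-terminal end of the kinase TAK1 (Map3k7) and has no kinase domain of its own. TAK1 passes signals of interleukin 1, TNF and TGF-β to the JNK, p38 and NF-κB pathways. Hsf2 encodes a heat shock transcription factor, a protein that binds heat shock elements and acts together with Hsf1 on genes of protein folding, and that is best known from development and from proteotoxic stress. Zfp365 encodes a zinc finger protein whose human counterpart has been linked to genome stability. Tp63 encodes p63, a relative of p53 that maintains the basal layer of stratified epithelia and is made in isoforms with and without an N-terminal transactivation domain, which a count per gene adds together.

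In the coordinates of the count files, whose genome build could not be settled, Map3k7cl (ENSRNOG00000001584) lies on the plus strand of chromosome 11 from 27208564 to 27251801, with 6 exon blocks that add up to 1962 bases. Tp63 is on the minus strand of the same chromosome from 78234800 to 78456501, with 17 exon blocks and 5523 exonic bases. Hsf2 lies on the plus strand of chromosome 20 from 38935820 to 38963309, with 12 exon blocks and 2545 exonic bases, and Zfp365 on the plus strand of chromosome 20 from 22060224 to 22086108, with 5 exon blocks and 5055 exonic bases. No gene of the files overlaps any of them.

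RefSeq start sites were matched by symbol for 3 of the 4 genes, on the assembly GRCr8, whose coordinates differ from those of the count files. A single start was held for each. Any other start of these genes, Tp63 with its isoforms included, was not examined. The 250 bases before each start are printed because these genes had their highest mean level in the same group of libraries, and their upstream sequences show what they do and do not have in common. Capitals mark matches, on either strand, to CCAAT (the CCAAT box), CACGTG (an E-box), GGGCGG (the GC box) and GAANNTTC (the core of a heat shock element). Hsf2 is shown from chr20:37366051-37366300 on the plus strand, Zfp365 from chr20:20664872-20665121 on the plus strand and Tp63 from chr11:88554178-88554427 on the minus strand, each 5′ to 3′.
Hsf2: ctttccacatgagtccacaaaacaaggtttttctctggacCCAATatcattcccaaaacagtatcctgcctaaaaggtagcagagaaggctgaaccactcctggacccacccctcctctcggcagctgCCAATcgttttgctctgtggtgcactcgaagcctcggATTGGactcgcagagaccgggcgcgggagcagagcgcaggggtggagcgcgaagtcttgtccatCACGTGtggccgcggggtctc
Zfp365: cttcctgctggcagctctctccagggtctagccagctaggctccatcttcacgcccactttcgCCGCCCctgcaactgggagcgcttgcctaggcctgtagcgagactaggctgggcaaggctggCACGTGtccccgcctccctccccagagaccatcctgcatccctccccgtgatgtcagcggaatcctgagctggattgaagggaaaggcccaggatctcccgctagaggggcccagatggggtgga
Tp63: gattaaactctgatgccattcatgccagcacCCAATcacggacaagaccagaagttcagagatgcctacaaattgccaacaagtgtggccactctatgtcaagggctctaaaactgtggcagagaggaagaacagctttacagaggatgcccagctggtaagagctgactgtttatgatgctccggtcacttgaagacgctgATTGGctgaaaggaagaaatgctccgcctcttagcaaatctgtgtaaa

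Hsf2 has 3 matches to the CCAAT box, beginning 210, 122 and 85 bases before the start, and 1 CACGTG beginning 21 bases before it. Zfp365 has 1 CACGTG, 125 bases before the start, and 1 GC box on the other strand, 187 bases before it. Tp63 has 2 CCAAT boxes, beginning 219 and 48 bases before the start. None of the 3 windows holds GAANNTTC, the only part of a heat shock element that was searched. Other arrangements of that element were not examined. Of 33465 rat promoter windows of the same length, 34.0% hold a CCAAT box, 5.59% a CACGTG, 30.5% a GC box and 7.23% a GAANNTTC, so the E-box of Hsf2 and Zfp365 is the least common of the letters found, and no motif is present in all 3. The windows also differed in base composition, with 57.2% G and C for Hsf2, 64.0% for Zfp365 and 47.2% for Tp63, beside a median of 51.2% over all windows.

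Library totals ran from 13852126 to 16801635 counts on day 14 and from 18616084 to 24858976 on day 3, without overlap, so day cannot be told apart from depth or from any batch that follows the day. The 4 genes were well covered, with 61 to 1757 counts per library, and all 4 passed the filter on low counts on both days. Levels are given as CPM, counts per 1000000 counts of a library, after TMM scaling of the 16 libraries. Non-adhesive day 14 replicate 4 stood apart from the rest of its group. Over 26 genes of skeletal muscle fibres its mean was 7.50 log2 CPM, against 6.76, 6.81 and 6.83 in replicates 1, 2 and 3, and over 19 fibroblast and matrix genes it was 6.27 against 8.2, 8.60 and 8.69. The day 14 differences of the 4 genes are given with and without it. So are the summed levels of the muscle, matrix, epithelial, chaperone, kinase cascade and p53-response lists. The day 14 tests of other named genes are given only with it.

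Map3k7cl had its highest level at the adhesive implant on day 14. The replicates of adhesive day 14 stood at 58.9, 50.2, 68.5 and 56.0 CPM and those of non-adhesive day 14 at 9.91, 15.6, 20.9 and 11.9 CPM. The groups did not overlap, with 50.2 CPM in the lowest adhesive and 20.9 CPM in the highest non-adhesive library. On day 3 the adhesive libraries held 21.7, 6.28, 18.5 and 13.8 CPM and the non-adhesive ones 6.89, 16.4, 3.90 and 8.49 CPM. These overlapped, with adhesive replicate 2 below 3 of the non-adhesive libraries and non-adhesive replicate 2 above 2 of the adhesive ones. In order of the mean, Map3k7cl stood at 58.4 ± 7.62 CPM (SD, n = 4) in adhesive day 14, 15.1 ± 6.69 in adhesive day 3, 14.6 ± 4.81 in non-adhesive day 14 and 8.93 ± 5.35 in non-adhesive day 3. The libraries of the lower 3 groups overlapped those of their neighbours in this order, and only adhesive day 14 stood clear of the next. In bulk tissue a change in the number of cells that make an RNA and a change in the RNA per cell cannot be told apart, here or for the other 3 genes.

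Hsf2, the most strongly counted of the 4, followed another course, in which the non-adhesive day 14 libraries were the low ones. They stood at 25.4, 31.8, 29.8 and 36.8 CPM, against 61.9, 59.0, 72.3 and 65.9 CPM in adhesive day 14. On day 3 Hsf2 had 50.2, 53.7, 78.5 and 47.5 CPM at adhesive and 32.9, 64.1, 58.2 and 44.5 CPM at non-adhesive implants, and the 2 groups were interleaved. The means ran from 64.8 ± 5.76 CPM (SD, n = 4) in adhesive day 14 through 57.5 ± 14.3 in adhesive day 3 and 49.9 ± 14.0 in non-adhesive day 3 to 30.9 ± 4.72 in non-adhesive day 14. Each of the first 3 groups overlapped the next in this order, and non-adhesive day 3 replicate 1 lay within the range of non-adhesive day 14.

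Zfp365 resembled Map3k7cl at a lower level. Its adhesive day 14 libraries stood at 19.4, 13.2, 19.8 and 17.4 CPM and its non-adhesive day 14 libraries at 5.68, 5.32, 8.90 and 6.34 CPM, without overlap. On day 3 it had 8.91, 9.81, 12.9 and 4.06 CPM at adhesive and 3.91, 8.03, 5.14 and 4.04 CPM at non-adhesive implants. Here 3 adhesive libraries were above all non-adhesive ones and the remaining one, replicate 4, was level with the lowest. The means were 17.4 ± 3.02 CPM (SD, n = 4) in adhesive day 14, 8.93 ± 3.67 in adhesive day 3, 6.56 ± 1.62 in non-adhesive day 14 and 5.28 ± 1.91 in non-adhesive day 3, and only the first stood clear of its neighbour in this order.

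Tp63 varied most between libraries of the same group. On day 14 it stood at 23.9, 23.6, 45.9 and 17.6 CPM at adhesive and 6.84, 9.90, 9.27 and 11.6 CPM at non-adhesive implants, again without overlap. On day 3 it had 16.6, 6.33, 16 and 7.73 CPM at adhesive implants, and 4.34, 32.3, 4.56 and 5.55 CPM at non-adhesive ones. Non-adhesive day 3 replicate 2 thus held the second highest level of Tp63 in the series, while the other 3 libraries of its group were the lowest in it. The group means were 27.8 ± 12.4 CPM (SD, n = 4) in adhesive day 14, 11.7 ± 13.7 in non-adhesive day 3, 11.6 ± 5.37 in adhesive day 3 and 9.41 ± 1.98 in non-adhesive day 14, and the last 3 did not differ beyond their spread.

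**Figure D1:**
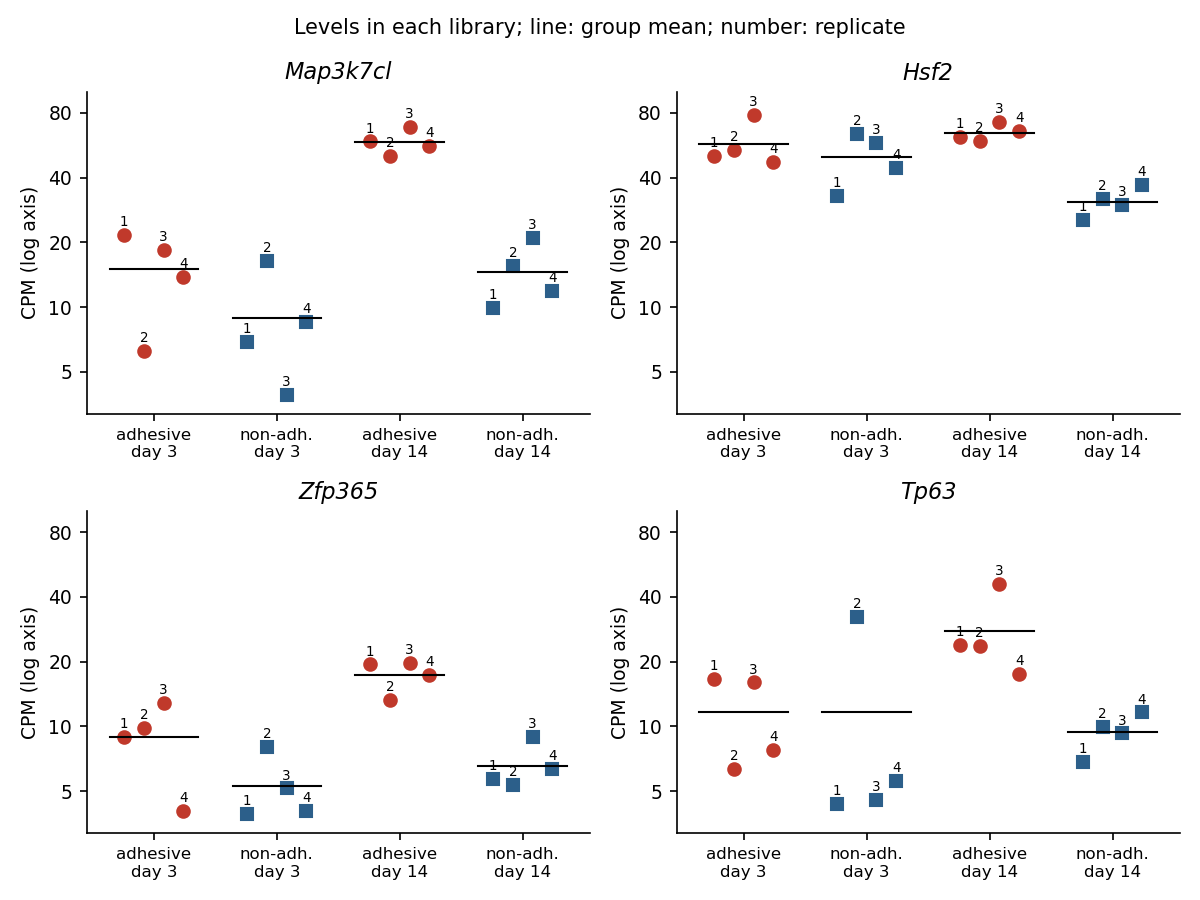
Level of each gene in CPM (log axis) in the 16 libraries, circles marking adhesive and squares marking non-adhesive implants, with the replicate number above each point and a line at the mean of each group (n = 4). Adhesive day 14 libraries lie above all non-adhesive day 14 libraries in each panel, the day 3 groups overlap, and non-adhesive day 3 replicate 2 stands out for Tp63 at 32.3 CPM.

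Per kilobase of exon, which allows levels of different genes to be set side by side, the adhesive day 14 means were 29.8 ± 3.88 CPM per kb (SD, n = 4) for Map3k7cl, 25.5 ± 2.26 for Hsf2, 5.03 ± 2.25 for Tp63 and 3.45 ± 0.597 for Zfp365. In non-adhesive day 14 the order of the first 2 was turned, with 7.44 ± 2.45 CPM per kb for Map3k7cl and 12.2 ± 1.86 for Hsf2. The spread of these genes within groups was narrower on day 14. A choice by the day 14 comparison favours genes with a small spread in those libraries, and the spread of all genes was not set beside it. The coefficient of variation of Map3k7cl was 13% in adhesive day 14 and 44.4% in adhesive day 3, and that of Hsf2 8.89% and 24.8%. For Tp63 it was 44.7% and 46.1% in the same groups, and 118% in non-adhesive day 3 against 21.1% in non-adhesive day 14.

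On day 14, the comparison on which the genes were selected, the log2 fold change of adhesive over non-adhesive implants was 2.00 (standard error 0.23) for Map3k7cl, 1.56 (0.31) for Tp63, 1.40 (0.21) for Zfp365 and 1.07 (0.14) for Hsf2. Map3k7cl, Zfp365 and Hsf2 met the thresholds used for a call, a false discovery rate of 0.05 by edgeR together with a log2 fold change of 1, and Tp63 met the fold alone. Since the genes were chosen by this comparison, the calls are given as a description and are no support for a difference. These calls depended on the libraries: with 1 left out in turn, none of the 4 was called in 5 of 8 fits, only Map3k7cl without non-adhesive replicate 3, the same 3 without adhesive replicate 2 and all 4 without non-adhesive replicate 4. None was called with the replicate block or with the total count as the only scaling, which put Hsf2 at 0.90, and DESeq2 called all 4. Of the 13557 genes tested on that day 0.155% were called higher and 0.111% lower at adhesive implants, and in 4.54% the lowest adhesive library exceeded the highest non-adhesive one, as it did in the 4 genes by choice. Without non-adhesive replicate 4, the library that stands apart, the values were 1.90 for Map3k7cl, 1.66 for Tp63, 1.37 for Zfp365 and 1.14 for Hsf2. Over all libraries left out in turn Map3k7cl ran from 1.85 to 2.22, Hsf2 from 0.98 to 1.14, Zfp365 from 1.31 to 1.59 and Tp63 from 1.20 to 1.72. In that library the muscle fibre mean of 7.50 log2 CPM lay within the 7.06 to 7.72 of the adhesive libraries, and its matrix mean of 6.27 within their 5.75 to 7.71. Its levels of Map3k7cl, Hsf2, Zfp365 and Tp63 were below those of every adhesive library, which the choice of the genes fixes.

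The day 3 libraries, which played no part in the choice, were used to ask whether the implants already differed in these genes early after implantation. In simulated data the edgeR test of day 3 found 21% of 2-fold and 78% of 4-fold changes. A gene that did not pass may therefore still differ. By edgeR none of the 4 passed, and neither did any other gene, with 0.0% of 14223 genes called in either direction and 1022 at an unadjusted p under 0.05. DESeq2 called 74 genes, none of them among the 4, whose lowest adjusted p with it was 0.53. On the log2 scale Map3k7cl was higher at adhesive implants by 0.76 (standard error 0.47, adjusted p = 0.77 by the quasi-likelihood test of edgeR) and Zfp365 by 0.75 (standard error 0.36, adjusted p = 0.71). For Hsf2 the value was 0.21 (standard error 0.23, adjusted p = 0.88), and for Tp63 0.00 (standard error 0.68, adjusted p = 1.0). The libraries of the 2 implants overlapped for all 4 genes on this day, where for 1.4% of the genes every adhesive library was the higher. Without non-adhesive day 3 replicate 2 the day 3 difference was 1.26 for Tp63, against 0.00 with it. For Map3k7cl it was 1.22, against 0.76 with that library, and neither gene passed. With a standard error of 0.68 the day 3 difference of Tp63 was the least precise of the 4.

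**Figure D2:**
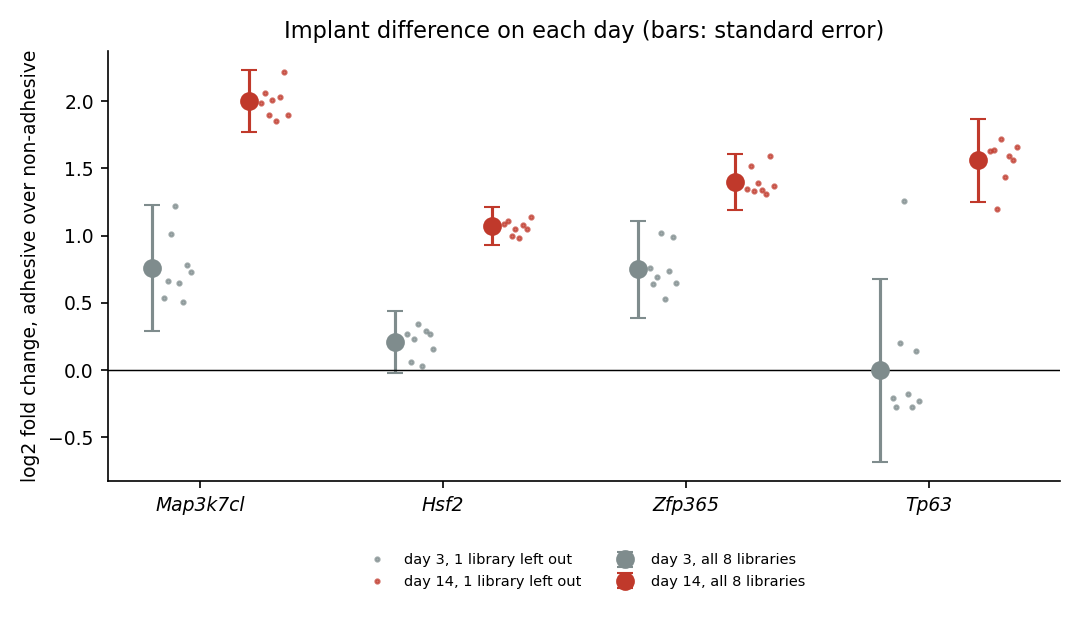
Log2 fold change of adhesive over non-adhesive implants on day 3 (grey) and day 14 (red) for each gene, with bars for the standard error of the fit of 8 libraries and small points for the 8 fits that leave out 1 library. The day 14 values run from 1.07 to 2.00, the values for which the genes were chosen, and the day 3 values from 0.00 to 0.76, with Tp63 at 1.26 when non-adhesive day 3 replicate 2 is left out.

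Between the days, the mean of both implants rose for Map3k7cl, by 1.34 on the log2 scale (standard error 0.29, adjusted p = 0.0027 by edgeR), in a comparison that called 7.51% of 14601 genes higher and 5.03% lower on day 14. The value was 1.96 at adhesive and 0.71 at non-adhesive implants. The day 14 libraries in this mean also served to choose the genes, by the difference between the implants and not by their mean. The p values of this comparison carry that limit. Zfp365 passed the false discovery rate and not the fold threshold, at 0.64 (standard error 0.22, adjusted p = 0.036 by edgeR), as 18.8% of genes did upward and 17.1% downward at any fold. With 1 library left out in turn it missed the false discovery rate in 11 of 16 fits, with adjusted p from 0.011 to 0.091 over all of them, and it also missed without the filter on low counts (0.57, adjusted p = 0.068 by edgeR). Hsf2 had -0.26 (standard error 0.14, adjusted p = 0.18) and Tp63 0.47 (standard error 0.41, adjusted p = 0.39), neither past the threshold. Of the same 16 fits 1 put Hsf2 past the false discovery rate, at -0.38 without non-adhesive day 3 replicate 1 (adjusted p = 0.039 by edgeR) and under the fold threshold. Without non-adhesive day 3 replicate 2, Tp63 passed at 1.11 (adjusted p = 0.004 by edgeR). The scaling weighs on every difference between the days, because TMM factors were 0.619 to 1.03 on day 14 and 0.986 to 1.41 on day 3. Scaled by the total count alone, the median of all genes shifted by -0.50 and Map3k7cl rose by 0.89 (adjusted p = 0.013 by edgeR) and Hsf2 fell by 0.76 (adjusted p = 0.00035), both under the fold threshold, while Zfp365 had 0.17 (adjusted p = 0.53).

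At each implant by itself, values that share libraries with the day 14 comparison and are not tested, Hsf2 went from day 3 to day 14 by 0.17 at adhesive and -0.69 at non-adhesive implants. Tp63 had 1.26 at adhesive and -0.31 at non-adhesive implants, and the latter turned to 0.96 without non-adhesive day 3 replicate 2. Zfp365 had 0.97 and 0.32. After TMM scaling, the high Hsf2 of adhesive day 14 was thus close to its own day 3 level, whereas Map3k7cl, Zfp365 and Tp63 in adhesive day 14 stood above both day 3 means. With the total count as the only scaling, the adhesive change was -0.39 for Hsf2, 0.41 for Zfp365, 0.74 for Tp63 and 1.42 for Map3k7cl. The difference of the implant effect between the days was 1.56 for Tp63, 1.24 for Map3k7cl, 0.86 for Hsf2 and 0.65 for Zfp365. Without non-adhesive day 3 replicate 2 it was 0.29 for Tp63, 0.77 for Map3k7cl, 0.72 for Hsf2 and 0.38 for Zfp365, which puts Tp63 last.

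Among the 8 libraries of day 3 the levels of the 4 genes were compared with each other, over 6 pairs. Map3k7cl and Tp63 followed each other most closely, with Pearson's r = 0.83 (exact permutation test over 40320 orders, two-sided, p = 0.013, adjusted p = 0.059) and Spearman's rho = 0.81 (exact permutation p = 0.022, adjusted p = 0.065), n = 8. Without the 2 libraries farthest from the median of Map3k7cl r was 0.82, and with the mean of each implant group removed it was 0.84 (adjusted p = 0.024, exact permutation). Hsf2 and Zfp365 had r = 0.76 (exact permutation p = 0.02, adjusted p = 0.059), rho = 0.81 and, without the 2 farthest libraries, r = 0.52. For the other 4 pairs r lay between 0.34 and 0.64, with adjusted p from 0.16 to 0.41 by the exact permutation test. No pair passed an adjusted p of 0.05 as planned, and that of Map3k7cl and Tp63 passed once the group means or non-adhesive replicate 2 (r = 0.91, adjusted p = 0.02, exact permutation) were removed.

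The libraries also differ in tissue make-up, so each gene was set against the mean log2 CPM of 4 marker lists over the same 8 libraries, 16 relations that were added after the values had been seen. Tp63 was high where muscle fibre genes were high, with r = 0.89 (exact permutation p = 0.0045, adjusted p = 0.036) and rho = 0.88 (p = 0.0072, adjusted p = 0.058, exact permutation), r = 0.79 without the 2 farthest libraries and 0.88 within the implant groups. Non-adhesive day 3 replicate 2, the library with 32.3 CPM of Tp63, had a muscle mean of 6.84 log2 CPM, against 5.62, 5.76 and 6.30 in the rest of its group. Zfp365 was low where matrix genes were high, with r = -0.94 (exact permutation p = 0.0026, adjusted p = 0.036) and rho = -0.88 (adjusted p = 0.058, exact permutation), r = -0.90 without the 2 farthest and -0.94 within the groups. Leaving out any 1 library kept the first r between 0.86 and 0.94 and the second between -0.97 and -0.92. Map3k7cl and the muscle mean had r = 0.79 (exact permutation p = 0.028, adjusted p = 0.15) and did not pass, and for Hsf2 the adjusted p ran from 0.19 to 0.68 by the exact permutation test. Leukocyte genes had r = -0.71 with Tp63 (exact permutation p = 0.048, adjusted p = 0.19) and rho = -0.45 (exact permutation p = 0.27), and r of -0.30 with Map3k7cl, -0.61 with Hsf2 and -0.44 with Zfp365, none of which passed. Within the implant groups these r were -0.89 for Tp63, -0.60 for Map3k7cl, -0.83 for Hsf2 and -0.84 for Zfp365, given as a description. With the mean of 13 epithelial genes Tp63 had r = -0.19 (exact permutation p = 0.64, adjusted p = 0.73). The points share their libraries and the scaling, and the part of tissue make-up in the levels of these genes was not tested.

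**Figure D3:**
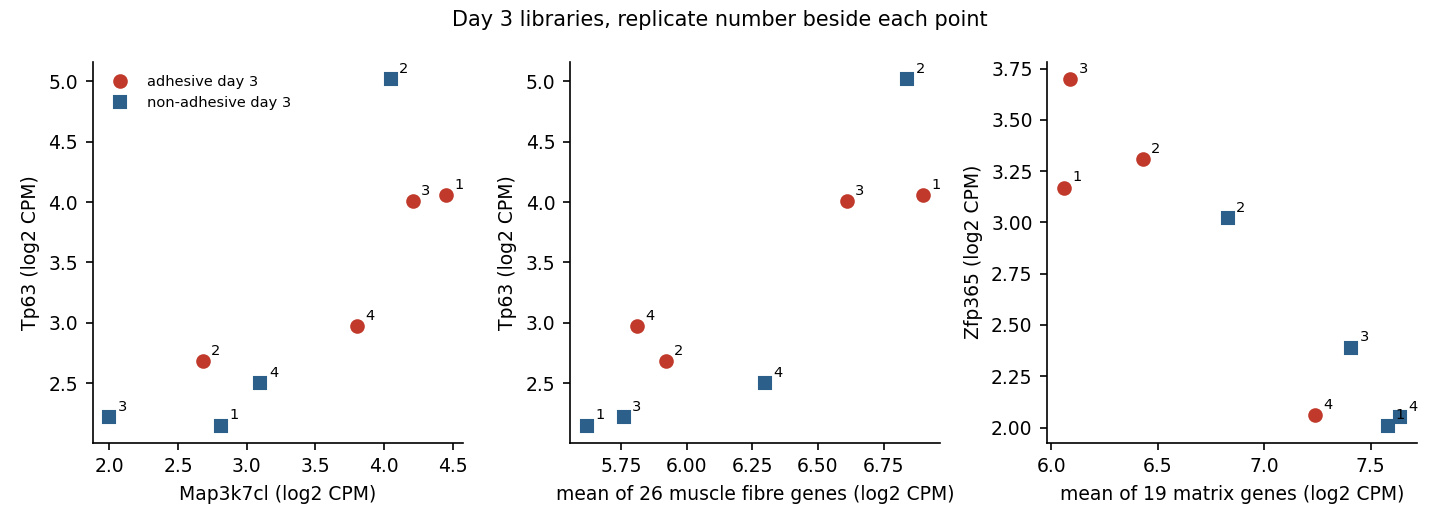
Levels in the 8 libraries of day 3 in log2 CPM, circles marking adhesive and squares marking non-adhesive implants, with the replicate number beside each point: Tp63 against Map3k7cl (left), Tp63 against the mean of 26 muscle fibre genes (centre) and Zfp365 against the mean of 19 matrix genes (right). The first 2 panels rise, with r = 0.83 and 0.89, and the last falls, with r = -0.94.

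Markers of the cells in the tissue were counted beside these genes, and their part in the day 14 levels was not tested. On day 14, 23 of 26 muscle fibre genes had a positive log2 fold change, with a median of 0.42, beside 45.7% positive and a median of -0.04 over all genes. The summed level of the list was 21900 to 35900 CPM at adhesive and 14400 to 35100 CPM at non-adhesive implants, with no member at 0. Of its 3 most abundant members, Fhl1, a LIM domain gene of muscle, had 1.00 (standard error 0.33, adjusted p = 0.20 by edgeR), Mb, the gene of myoglobin, 1.09 (standard error 0.38, adjusted p = 0.22) and Eno3, the enolase of muscle, 0.03 (standard error 0.42, adjusted p = 0.99). Of 19 matrix genes 18 had a negative log2 fold change, with a median of -1.51 and summed levels of 2780 to 14700 against 3570 to 24500 CPM. Of these only Fmod, the gene of a collagen-binding proteoglycan, was called, and it is named for that reason after its value was seen. On day 3 the medians of both lists were 0.18 and -0.90. Leukocyte genes had a median of 0.44 on day 3 and -0.30 on day 14, with no call on either day. The summed ranges of the 2 implants overlapped on day 14 in each list. Without non-adhesive replicate 4 the non-adhesive range was 14400 to 16500 CPM for muscle and 21500 to 24500 CPM for matrix genes, and neither then overlapped the adhesive range.

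Epithelial markers bear on Tp63, whose best known site is the epidermis. The 13 epithelial genes of the list include genes of junctions and of basement membrane attachment. They summed to 81.1 to 107 CPM in adhesive day 14 and 91.9 to 143 CPM in non-adhesive day 14 (132 to 143 CPM without replicate 4). On day 3 they summed to 107 to 117 CPM at adhesive and 90.0 to 125 CPM at non-adhesive implants. On day 14, 5 of 12 tested members had a positive log2 fold change, with a median of -0.34. Itga6, the integrin of basal epithelial cells and of vessels, had -0.38 (standard error 0.16, adjusted p = 0.29 by edgeR), F11r, a tight junction gene, -0.78 (standard error 0.22, adjusted p = 0.15), and Emp2, a membrane protein gene, -0.33 (standard error 0.22, adjusted p = 0.52). Dlx3, an epidermal transcription factor gene, was at 0 in at least 1 library of 3 of the groups. With all libraries in the fit, none of the 12 passed edgeR on day 14, the day on which Tp63 had its highest level. Keratin genes are not analysed here.

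Genes of the pathways of Hsf2, Map3k7cl and Tp63 did not pass the test between the implants with all libraries in the fit. These lists were not tested again without non-adhesive day 14 replicate 4, where the day 14 calls over all genes went from 36 to 1151. On day 14 the chaperones summed to 2230 to 2520 CPM at adhesive and 1980 to 2380 CPM at non-adhesive implants. The genes of the TAK1, JNK and p38 cascades had 953 to 1340 against 812 to 1350 CPM. The p53-response genes had 2050 to 3560 against 1290 to 2540 CPM. Without that replicate the non-adhesive ranges were 1980 to 2220, 812 to 936 and 1290 to 1600 CPM. Each then lay below the adhesive range, which was not tested. The most abundant genes weigh most in such sums. Of 21 chaperone genes, a class that heat shock factors regulate in part, 7 had a positive log2 fold change on day 3 (median -0.01) and 13 on day 14 (median 0.09), and none passed edgeR on either day. Which of the 21 are targets of Hsf2 was not examined. Between the days 9 fell and 3 rose at a false discovery rate of 0.05 at any fold, with a median of -0.32 beside 0.02 over all genes. As shares of the 21 genes these stand beside the 17.1% of all genes that were lower and the 18.8% that were higher by the same rule, and the share that rose is under the latter. Among those that fell were the endoplasmic reticulum chaperones Canx, which fell by 0.73 (standard error 0.15, adjusted p = 0.0022 by edgeR), and Calr, which fell by 0.66 (standard error 0.17, adjusted p = 0.0084), and the chaperonin subunit Cct6a, which fell by 0.46 (standard error 0.10, adjusted p = 0.0028). Those that rose were Dnajb5, Dnajb9 and Dnajc28, all of the DnaJ family of co-chaperones. The list is limited to genes with a symbol, and the heat shock protein genes of the Hspa and Hspb families are not analysed here.

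Of 17 genes of the TAK1, JNK and p38 cascades, 14 had a positive log2 fold change on day 3 (median 0.18) and 13 of 16 on day 14 (median 0.15), and again none passed. Map3k20, a kinase that responds to ribosome stress, had the highest values of the 3 most abundant members, 1.04 (standard error 0.33, adjusted p = 0.60 by edgeR) on day 3 and 1.62 (standard error 0.33, adjusted p = 0.091) on day 14. Mapk14, which encodes p38α, had 0.18 (standard error 0.13) and 0.07 (standard error 0.18), and Mapkapk2, a kinase activated by p38, 0.12 (standard error 0.20) and 0.14 (standard error 0.23), none of them past the threshold. Between the days 4 of 17 rose at any fold, Map2k6, Map2k7, Mapk9 and Mapkapk2, and Map3k14 alone fell, beside 18.8% and 17.1% of all genes, so the list is not set apart by these counts.

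Of 8 p53-response genes, 6 had a positive log2 fold change on each day, with medians of 0.03 on day 3 and 0.18 on day 14 and none past the threshold. Cdkn1a, which encodes the cell cycle inhibitor p21, had -0.21 (standard error 0.20, adjusted p = 0.86 by edgeR) on day 3 and 0.98 (standard error 0.26, adjusted p = 0.14) on day 14. Ccng1, the gene of cyclin G1, had 0.33 (standard error 0.26) and 0.74 (standard error 0.32, adjusted p = 0.30 by edgeR). Between the days 3 of the 8 fell at any fold, Bak1, Btg2 and Cdkn1a, and 3 rose, Ccng1, Sesn1 and Tp53bp2, beside 17.1% and 18.8% of all genes. Cdkn1a fell by 1.84 (standard error 0.18, adjusted p = 1.4e-05 by edgeR) and Btg2 fell by 0.97 (standard error 0.17, adjusted p = 0.00093), while Ccng1 rose by 0.99 (standard error 0.22, adjusted p = 0.0031).

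Genes beside the 4 on their chromosomes were examined with up to 3 on each side. Of the 24 neighbours, Map3k7cl had Usp16, a deubiquitinase gene, at 0.11 (standard error 0.12), the chaperonin subunit Cct8 at 0.31 (standard error 0.15) and the transcriptional repressor Bach1 at 0.15 (standard error 0.37) on day 14, all below the 2.00 of Map3k7cl by more than their standard errors. Beside Hsf2, ENSRNOG00000029360 lies 3929 bases away on the opposite strand and had 0.31 (standard error 0.14), and Gja1, the gene of connexin 43, -0.91 (standard error 0.44). Arid5b, a chromatin gene near Zfp365, had 0.27 (standard error 0.27). None of these passed edgeR on day 14, with adjusted p from 0.31 to 0.89. Beside Tp63, both neighbours with a day 14 value lie on the same side of it. Cldn1, which encodes the tight junction protein claudin 1, had -0.88 (standard error 0.62, adjusted p = 0.55 by edgeR). ENSRNOG00000055751, a gene without a symbol here on the plus strand 65152 bases from Tp63, had 1.10 (standard error 0.23, adjusted p = 0.098 by edgeR), with 6.96 ± 1.35 CPM (SD, n = 4) in adhesive day 14, 3.26 ± 0.629 in non-adhesive day 14, 2.39 ± 1.12 in adhesive day 3 and 1.87 ± 0.499 in non-adhesive day 3. It rose between the days by 1.17 (standard error 0.22, adjusted p = 0.0012 by edgeR). Both genes thus had their highest mean in adhesive day 14. The kit does not mark strand, so reads from the 2 strands cannot be told apart. The strand setting of the counting is not given in the sources, and the 2 genes do not overlap in the files.

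**Figure D4:**
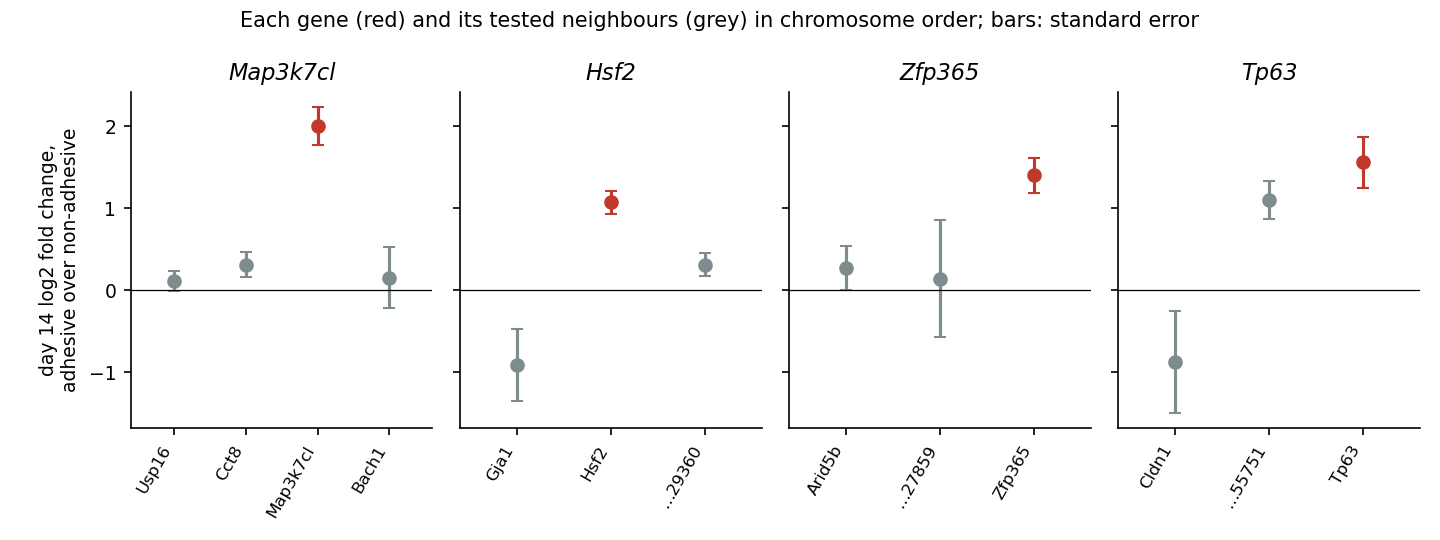
Day 14 log2 fold change of adhesive over non-adhesive implants for each of the 4 genes (red) and its neighbours that passed the filter on low counts (grey), in the order along the chromosome, with bars for the standard error. Genes without a symbol carry the last digits of their identifier, and the neighbours lie between -0.91 and 0.31 except ENSRNOG00000055751 beside Tp63 at 1.10.

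The genes with a symbol whose pattern was most like that of each of the 4, by Pearson's r of log2 CPM over the 16 libraries, were named as a description without a test, since the groups and the scaling are shared. For Map3k7cl they were Bpnt1, a nucleotidase gene, with r = 0.90 and 0.62 once group means were removed, the transporter gene Abca8 (0.88 and 0.75) and the glutamate receptor gene Grm4 (0.87 and 0.55). For Hsf2 they were Slain2, a microtubule gene, with 0.89 and 0.84, Brwd1 (0.87 and 0.68) and Wdr26 (0.87 and 0.62). Nfic, which encodes a transcription factor of the nuclear factor I family, had the highest r with Zfp365 of all genes compared, with or without a symbol, at 0.93 and 0.87 within groups. It stood at 121 ± 22.9 CPM (SD, n = 4) in adhesive day 14 and 78.2 ± 8.77 in non-adhesive day 14. The connexin gene Gjb1 (0.85 and 0.47) and Alb, the gene of albumin (0.84 and 0.48), came next among those with a symbol. For Tp63 they were Vash2, a vasohibin gene (0.88 and 0.85), Tgfb2, which encodes the growth factor TGF-β2 (0.87 and 0.82), and Map3k7cl itself (0.85 and 0.77). Tgfb2 had 79.4 ± 44.9 CPM (SD, n = 4) in adhesive day 14 and 43.1 ± 7.03 in non-adhesive day 14.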

How the data were processed

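Bulk RNA of the implant site was sequenced with a poly(A) kit that does not mark strand. The authors demultiplexed with bcl2fastq 2.17, removed adaptors by Cutadapt, used STAR for alignment and featureCounts for counting. They deposited raw counts, whole numbers for 32552 genes in each library. The paper names a rat assembly and the labels a mouse one, and the coordinates of the files fit neither, since chromosome 1 reaches 282724300. Symbols, known for 2007 genes, were read from a shortened copy of the Supplementary Data.
Implants were compared in a fit of the 8 libraries of a day, and days in a fit of all 16, with edgeR 4.0.16 in R 4.3.3 (filterByExpr, TMM, robust quasi-likelihood test, Benjamini-Hochberg adjustment). A call needed a false discovery rate of 0.05 and an absolute log2 fold change of 1. DESeq2 1.42.0, the tool of the study, its size factors, no filter, no fold limit, the replicate number as a block, 1 fit of all libraries and leaving out each library were alternatives, and scaling by the total alone was added after the data were seen. log2 CPM used a prior count of 2. The tests were tested on simulated data. The 4 genes, the lists and the tests were chosen with earlier results of these data known. Named beside the 4 are up to 3 neighbours on each side, the 3 genes with a symbol, a mean of at least 1 CPM and the highest r, and up to 3 of the most abundant members of a list, with members that passed a threshold. The lists of vessel genes (12) and of nerve and glia genes (7) had day 14 medians of -0.36 and -0.44, with no call. Motifs were searched in RefSeq promoter windows of GRCr8. Figures were drawn with matplotlib 3.10.9.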

Additional observations from a re-analysis of the deposited data

Results flagged for a closer look

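In non-adhesive day 3, Tp63 stood at 32.3 CPM in replicate 2 and at 4.34, 4.56 and 5.55 CPM in replicates 1, 3 and 4. The gap between this library and the next was larger than Dixon's limit for 4 samples at the 95% level. Of the 16 combinations of gene and group examined, this was the only one past the limit, and chance gives about 1 in 20. The library also had the highest Map3k7cl (16.4 CPM), Hsf2 (64.1 CPM) and Zfp365 (8.03 CPM) of its group.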

How the results depend on the processing

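The differences of the 4 genes between the implants on day 14 kept their direction, and moved by less than their within-group SD, under every alternative run, and none of the 4 passed on day 3 under any. What changed were the calls, those of the 4 genes on day 14 included, and some differences between days. On day 14 edgeR called 36 genes in all, DESeq2 509, a single fit of the 16 libraries 216, scaling by the total count 6 and the replicate block 0, with 1973 genes at an unadjusted p under 0.05. That count ran from 1 without adhesive day 14 replicate 1 to 1151 without non-adhesive day 14 replicate 4. On day 3 DESeq2 called 74 genes where edgeR called 0. Between the days 5246 genes passed without the fold limit, Zfp365 among them at 0.64, against 1831 with it. Scaling by the total count, an alternative added after the data were seen, gave Map3k7cl 0.89 between the days, and at single implants turned Hsf2 to -0.39 (adhesive) and Zfp365 to -0.08 (non-adhesive), with 0.41 for Zfp365 (adhesive) and -1.12 for Hsf2 (non-adhesive). By its construction it leaves a shift of the median gene in these values. That shift was -0.50 for the mean of both implants and was not computed for single implants.
Non-adhesive day 3 replicate 2 decided the values of Tp63. With 1 library left out in turn, its change between the days ran from 0.29 to 1.11, its change at non-adhesive implants from -0.64 to 0.96, and the amount by which its implant effect was larger on day 14 from 0.29 to 1.87. The 1.11, the 0.96 and the last 0.29 came from the fit without that library. Its relation with Map3k7cl on day 3 ran from 0.81 to 0.91, the latter past the threshold, and was 0.84 with group means removed.
Same-numbered libraries of the 2 implants did not deviate together in every pair. Their correlations ran from -0.31 to 0.30 on day 3 and from -0.34 to 0.48 on day 14. On day 14 adhesive replicates 2, 3 and 4 correlated best with the non-adhesive library of the same number (r = 0.48, 0.25 and 0.17), and on day 3 none did. The number was not read as a pairing, and the replicate block was run as an alternative. With the replicate block Map3k7cl had 1.32 between the days (adjusted p = 0.01 by edgeR) and Tp63 0.60 on day 3 (adjusted p = 0.95), and no call on the 4 genes changed in these comparisons, while on day 14, where the block left 0 calls, Map3k7cl, Hsf2 and Zfp365 lost theirs. The 4 genes had at least 61 counts in every library, and the precision is limited by 4 libraries a group.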
